A study of Mus musculus with 24 samples.

Results

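The genes described here are 10 components of the mammalian unfolded protein response: Xbp1, Atf4, Atf6, Hspa5, Ddit3, Eif2ak3, Ern1, Herpud1, Dnajb9 and Hsp90b1. They were chosen by name, with earlier results of these data known. Every probe of each gene is shown apart, because the probes of Atf4 differ. The 10 genes are among 19057 named genes on the array and are read by 18 probes. Of these, 10 probes of 6 genes (Xbp1, Atf4, Ddit3, Herpud1, Dnajb9 and Hsp90b1) passed the detection filter and were tested, among 10076 named genes with a tested probe.

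The unfolded protein response adjusts the folding capacity of the endoplasmic reticulum when unfolded proteins accumulate there. The sensors that start it sit in the membrane of that compartment: Ern1 (IRE1α), which splices the mRNA of the transcription factor Xbp1, Eif2ak3 (PERK), which phosphorylates the initiation factor eIF2α and thereby favours translation of the transcription factor Atf4, and Atf6, which is cleaved to release a transcription factor. Their targets include the chaperones Hspa5 (BiP), Hsp90b1 (GRP94) and Dnajb9 (ERdj4), the degradation factor Herpud1 and the transcription factor Ddit3 (CHOP). Spermatids build the acrosome from vesicles that pass through the endoplasmic reticulum and the Golgi apparatus.

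RNA came from male germ cells of adult mice on a B6/129sv background, either wild type (WT) or labelled Nutm1_KO (KO), which the design text of the series calls a knock down. The product of Nutm1, Nut, is a testis protein that recruits the histone acetyltransferase p300. Spermatocytes, the cells in meiosis, and round spermatids, the haploid cells after it, were enriched by sedimentation on a gradient of bovine serum albumin. The round spermatid fraction may hold early elongating spermatids, per the labels. Each of the 4 groups (WT and KO spermatocytes, WT and KO round spermatids) has 3 direct arrays. Within a group, each array comes from its own fractionation of pooled testes of 2 WT or 3 KO mice. Within a genotype, spermatocyte and round spermatid arrays of the same number share a fractionation, per the labels. The main model does not account for this pairing. Another 3 arrays per group are mixtures of the RNA of replicates 1 and 2, 2 and 3, or 1 and 3, and stayed out of the main fit. The mixtures of a group share RNA with each other. A p-value on the mixed arrays alone therefore treats dependent arrays as independent and is given only as a description. Arrays carry a signal per probe, given here on a log2 scale after background correction and quantile normalization, and a probe counts as detected on an array where its detection p is under 0.01.

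The direct arrays had median raw intensities of 136 to 171 and detected 13849 to 16244 of 45281 probes, and the number of arrays limits the precision. The single probe of Nutm1 read 6.75 to 7.03 in KO and 8.18 to 8.52 in WT round spermatids (difference -1.50, SE 0.25, limma adjusted p = 0.00148) and 5.51 to 5.69 against 5.76 to 6.89 in spermatocytes (-0.65, adjusted p = 0.571). The altered part of Nutm1 is not given in the sources used here, so this probe may not check the label. Between the stages in WT, 8 of the 10 tested spermatid marker genes were called higher and 4 of the 7 tested spermatocyte marker genes lower in round spermatids, while Sycp3, Hormad1 and Dmc1 were not detected. Markers of other cells differed with stage as well: in WT, 10 of 14 macrophage genes, 5 of 7 Sertoli cell genes and 3 of 3 erythroid genes were called higher and 4 of 4 Leydig cell genes lower in round spermatids. Mixed arrays did not all follow their labels. Deviations from the group mean on each mixed array were correlated over probes with those of each pair of replicates. On the mixed array of KO spermatocytes labelled as 1 and 3, r was -0.56 for the named pair and 0.42 for replicates 2 and 3. On the array of WT round spermatids labelled as 2 and 3 it was -0.31 and, for replicates 1 and 2, 0.34. The named pair gave the highest r only on the mixed arrays of WT spermatocytes (0.42 to 0.64). On every mixed array of the other groups another pair gave a higher r, and the named pair gave -0.56 to 0.18. In KO round spermatids all of these r were small, at -0.14 to 0.12. Between 16.4% and 33.5% of tested probes lay outside the range of their named parts by more than 0.5 (log2) on mixed KO spermatocyte arrays, against 4.99% to 11.4% on those of the other groups. No test below uses the mixed arrays unless it says so, but they entered the quantile normalization with the direct arrays.

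Some promoters of these genes carry the letters that the cleaved form of ATF6 and the spliced form of XBP1 are known to bind, and they are printed to show which members hold such a match and which do not. The windows are the 250 bases before the gene's start, in RefSeq sequence of the mouse assembly GRCm38.p6, which held 9 of the 10 genes, all but Atf6. The motifs searched on both strands were the endoplasmic reticulum stress element ERSE (CCAAT, 9 bases of any kind, CCACG), ERSE-II (ATTGG, 1 base, CCACG), the core of the unfolded protein response element UPRE (TGACGTGG), a core shared by C/EBP and ATF factors (TGATGNAA) and the cAMP response element CRE (TGACGTCA). Only 3 of the 9 promoters held a match to any of them. Capitals mark the matches, with the bases between the parts of an element included, and each sequence runs 5′ to 3′ on the strand of its gene.
Hspa5, chr2:34772013-34772055, plus strand: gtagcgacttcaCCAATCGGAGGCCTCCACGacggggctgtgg
Herpud1, chr8:94386305-94386399, plus strand: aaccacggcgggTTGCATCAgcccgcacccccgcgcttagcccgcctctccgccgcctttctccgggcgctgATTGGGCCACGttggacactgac
Hsp90b1, chr10:86705521-86705668, minus strand: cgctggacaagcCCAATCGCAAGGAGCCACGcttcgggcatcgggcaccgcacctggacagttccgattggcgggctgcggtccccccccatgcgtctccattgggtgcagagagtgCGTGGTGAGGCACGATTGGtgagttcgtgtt

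Hspa5 held 1 ERSE, from position -65 to -47 relative to the start. Hsp90b1 held 2, from -212 to -194 on the strand of the gene and from -107 to -89 on the opposite strand. Herpud1 held an ERSE-II from -52 to -42 and a C/EBP and ATF core, read on the opposite strand, from -112 to -105. Of 32851 promoters, 0.113% held an ERSE, 0.0304% an ERSE-II, 0.563% the UPRE core, 3.45% the C/EBP and ATF core and 1.55% the CRE. The promoters of Xbp1, Atf4, Ddit3, Eif2ak3, Ern1 and Dnajb9 held none of the 5 in this window, which says only that these letters are not there.

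The promoter of Atf4, 1 of the 2 genes called in round spermatids below, held both parts of the ERSE without its spacing, as the last 150 bases before its start show, with these parts in capitals. This search was made after the results were seen and, among the members, only in the 2 called genes.
Atf4, chr15:80255034-80255183, plus strand: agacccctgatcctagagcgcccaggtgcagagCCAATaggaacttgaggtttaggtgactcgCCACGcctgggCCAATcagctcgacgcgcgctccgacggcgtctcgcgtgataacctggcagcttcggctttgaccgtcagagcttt
CCAAT stood at -117 and -76 and CCACG at -87. In the last 150 bases, 24.5% of all promoters held CCAAT and 20% held CCACG, on either strand. The share that held both was not computed, so how common this finding is remains unknown. Xbp1, the other gene called, held neither on either strand.

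The sensors were not measured. None of the probes of Ern1 (3 probes), Eif2ak3 (2 probes) and Atf6 (2 probes) was detected on any of the 12 direct arrays, nor was the probe of the chaperone Hspa5. These 8 probes lay between 4.38 and 5.42, where values carry no order. The probe of Hspa5 read 4.51 to 5.08 with a lowest detection p of 0.0427, and the nearest to detection among the Ern1 probes (ILMN_2502860) read 4.49 to 5.42 with a lowest detection p of 0.0150. A probe that is not detected gives only an upper bound on the RNA, so no group could be compared for these 4 genes. The sequences and positions of the probes were not used here, so the spliced and unspliced forms of the Xbp1 mRNA are not told apart, and the arrays read RNA only.

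**Figure D1:**
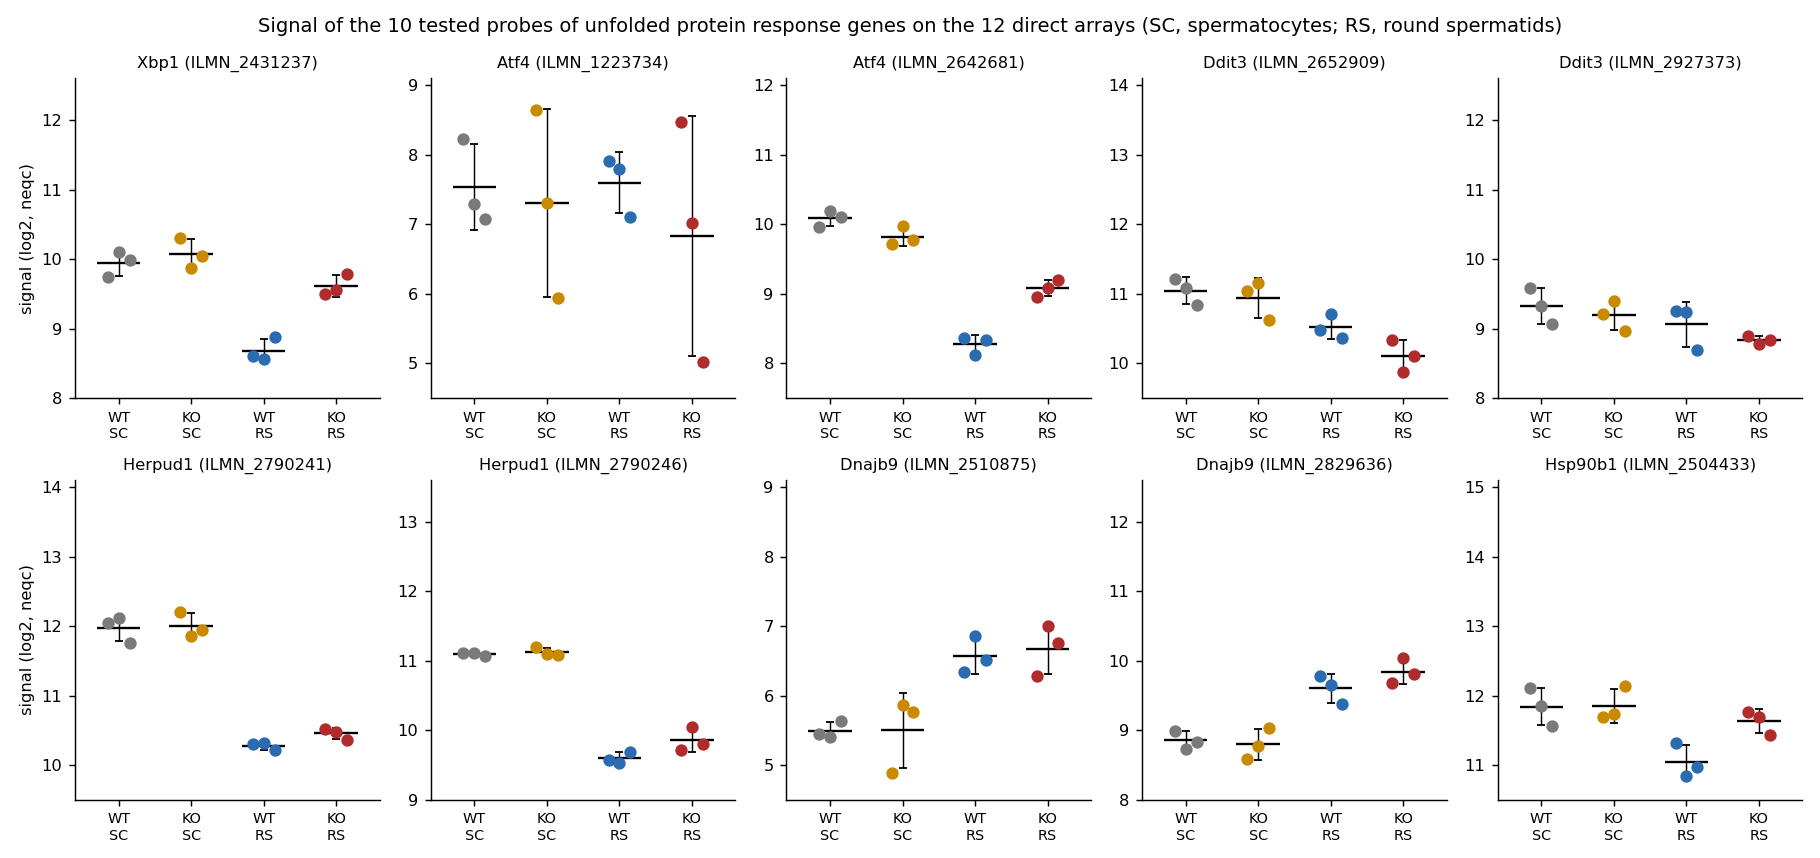
Signal (log2) of each of the 10 tested probes, 1 panel per probe, on the 3 direct arrays of each group (SC, spermatocytes; RS, round spermatids). Dots are arrays, bars are group means and whiskers are SD; Xbp1 and Atf4 probe ILMN_2642681 stand higher in KO than in WT round spermatids, and the arrays of Atf4 probe ILMN_1223734 are spread widely in KO. The vertical axes start at different values and span the same range.

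In round spermatids, the transcription factor genes Xbp1 and Atf4 (1 of its 2 tested probes) were higher in KO than in WT. The other 8 probes, which include those of the targets Ddit3, Herpud1, Dnajb9 and Hsp90b1, did not pass the test. Of all 17401 probes tested, 6.19% were called higher and 7.32% lower in KO, so 2 of 10 member probes called higher and 0 called lower stand beside these shares. Calls rest on limma with a Benjamini-Hochberg adjusted p under 0.05 over all probes.

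Xbp1 (ILMN_2431237) read 9.49, 9.55 and 9.79 in KO and 8.60, 8.56 and 8.88 in WT round spermatids. All KO arrays lay above all WT arrays, and the gap between the groups was larger than the spread within either. The difference was 0.93 (log2, SE 0.18, 95% interval 0.54 to 1.33), a 1.91-fold higher signal in KO (limma adjusted p = 0.00497). The median of all probes was itself shifted by 0.12 in this comparison, and relative to it Xbp1 was higher by 0.81. Over 21 alternative settings the difference ranged from 0.69 to 1.03 and passed the test each time.

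Atf4 is the transcription factor of the integrated stress response, in which several kinases converge on eIF2α. Its probe ILMN_2642681 read 8.96, 9.09 and 9.19 in KO and 8.36, 8.12 and 8.34 in WT round spermatids. These groups lay apart too. The difference was 0.81 (SE 0.16, 95% interval 0.47 to 1.15), or 1.75-fold, with a limma adjusted p of 0.00514, and 0.69 relative to the median of all probes. It passed under all 21 alternatives, at 0.63 to 0.87.

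The other Atf4 probe, ILMN_1223734, read 8.47, 7.02 and 5.02 in KO and 7.91, 7.80 and 7.10 in WT round spermatids. The KO arrays spanned the WT arrays on both sides, and replicate 3 of KO was not detected. The difference of -0.76 (SE 0.77, 95% interval -2.44 to 0.92) did not pass (limma adjusted p = 0.543), and its interval holds the value of the first probe. In KO spermatocytes this probe read 8.65, 7.31 and 5.94, whereas the other probe read 9.72, 9.97 and 9.78. Replicate 1 was highest and replicate 3 lowest on ILMN_1223734 in all 4 groups, although KO and WT share no fractionation. Over the 12 direct arrays the 2 Atf4 probes correlated at r = -0.08, a description over arrays that share groups. The pairs of Herpud1, Dnajb9 and Ddit3 probes correlated at 0.98, 0.92 and 0.85. For deviations from the group means, r was -0.55 for the Atf4 pair and 0.15, 0.56 and 0.77 for those of Herpud1, Dnajb9 and Ddit3. What made the Atf4 probes differ was not tested.

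Hsp90b1, the endoplasmic reticulum member of the HSP90 chaperones, read 11.77, 11.70 and 11.43 in KO and 11.31, 10.85 and 10.97 in WT round spermatids. Its groups did not overlap, but the difference of 0.59 (SE 0.21, 95% interval 0.14 to 1.03, 1.50-fold) did not pass (limma adjusted p = 0.0764). It passed with array weights (0.58, adjusted p = 0.0240), on the authors' processed values (0.56, adjusted p = 0.0465) and without replicate 1 of WT round spermatids (0.72, adjusted p = 0.0493). It also passed on the mixed arrays alone, which are not independent samples (0.58, adjusted p = 0.0282).

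Herpud1, which helps to degrade proteins of the endoplasmic reticulum, had 2 concordant probes. ILMN_2790241 read 10.52, 10.48 and 10.36 in KO and 10.31, 10.32 and 10.21 in WT round spermatids, and ILMN_2790246 read 9.71, 10.05 and 9.80 against 9.57, 9.53 and 9.69. On both, the KO arrays lay just above the WT arrays. The differences of 0.18 (SE 0.16, limma adjusted p = 0.505) and 0.26 (SE 0.15, adjusted p = 0.264) did not pass.

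Ddit3, the transcription factor CHOP, which is induced in prolonged stress, was not higher in KO. Its probe ILMN_2652909 read 10.34, 9.88 and 10.11 in KO and 10.48, 10.71 and 10.37 in WT round spermatids, with KO below WT on every array. The difference of -0.41 (SE 0.20, 95% interval -0.85 to 0.02) did not pass (limma adjusted p = 0.186). Probe ILMN_2927373 read 8.89, 8.78 and 8.84 against 9.26, 9.24 and 8.69, groups that overlapped, with a difference of -0.23 (SE 0.20, adjusted p = 0.491). Both probes were called lower in KO under 1 alternative each, the mixed arrays alone, which are not independent samples (limma adjusted p = 0.0142 and 0.0280).

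Dnajb9, a cofactor of Hspa5, overlapped between the genotypes on both probes. ILMN_2829636 read 9.68, 10.04 and 9.81 in KO and 9.78, 9.66 and 9.38 in WT round spermatids (difference 0.24, SE 0.18, limma adjusted p = 0.406). ILMN_2510875 read 6.28, 6.99 and 6.75 against 6.34, 6.85 and 6.52 (0.11, SE 0.27, adjusted p = 0.829). Over the 10 probes, the arrays of the genotypes did not overlap for 5 that were higher and 1 that was lower in KO. Of all probes, 25.1% lay apart in this way with KO higher and 16.3% with KO lower.

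The mean signal of the spermatid marker list lay between 13.23 and 13.35 on KO and between 13.48 and 13.54 on WT round spermatid arrays, so it moved with the genotype. The mean of the erythroid list lay apart as well, at 7.66 to 8.81 in KO and 8.88 to 9.94 in WT, with none of its 3 genes called. Called lower in KO were 2 of 7 Sertoli cell genes, 1 of 10 spermatid genes and 1 of 6 peritubular and endothelial genes, and 1 of 14 macrophage genes was called higher. The means of the spermatocyte list (10.15 to 10.44 in KO, 10.18 to 10.33 in WT) and of the macrophage list (7.24 to 8.50 and 6.83 to 7.61, with Ptprc and Tyrobp not detected) overlapped. The part of other cells or of stage composition in the differences of Xbp1 and Atf4 was not tested. In such bulk samples fewer cells of a type and less RNA per cell cannot be told apart. The offset of 16 added with the background correction understates the change of dim probes.

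**Figure D2:**
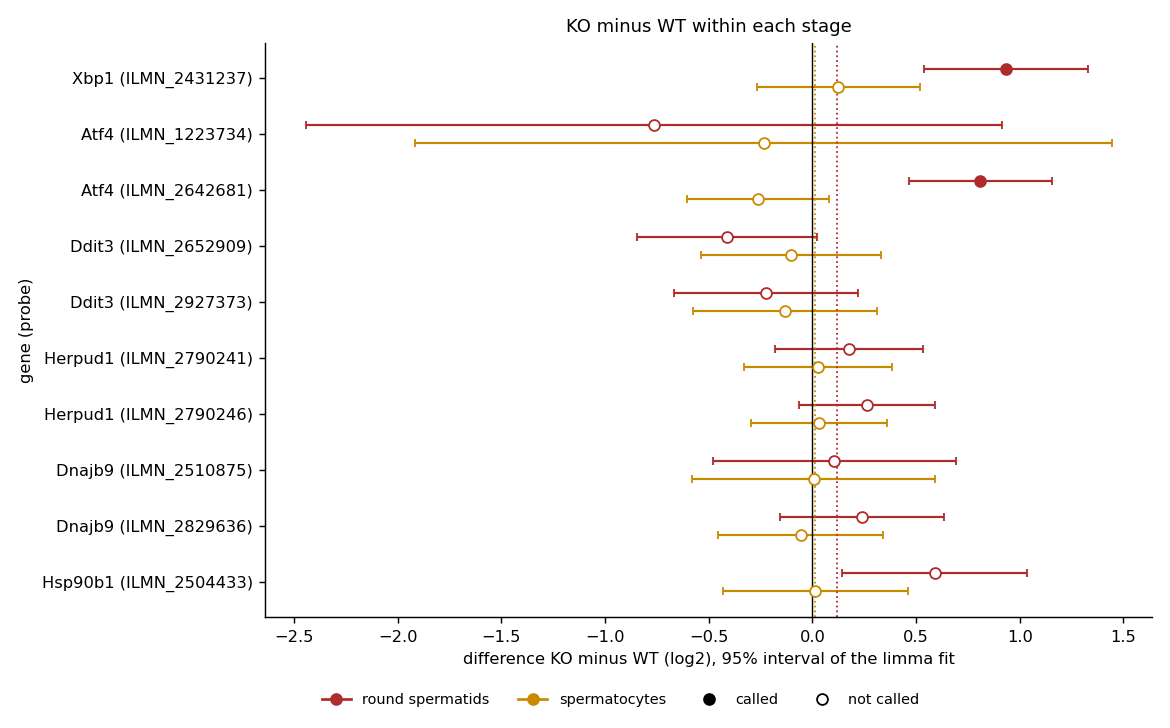
Difference KO minus WT (log2) of each tested probe in round spermatids (red) and spermatocytes (orange), with the 95% interval of the limma fit. Filled dots were called and open dots were not; dotted lines are the medians of all 17401 probes. Xbp1 (0.93) and Atf4 probe ILMN_2642681 (0.81) are called in round spermatids, and no probe is called in spermatocytes.

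In spermatocytes, none of the 10 member probes was called between KO and WT, and none had an unadjusted p under 0.05 in limma. Among all probes 0.805% were called (140, with 1160 at an unadjusted p under 0.05). The differences of the members ran from -0.26 to 0.13, with all groups overlapping and limma adjusted p of at least 0.880. Xbp1 read 10.30, 9.88 and 10.04 in KO and 9.74, 10.11 and 9.99 in WT spermatocytes. The values of each genotype lay among those of the other, and the difference was 0.13 (adjusted p = 0.979).

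The Atf4 probe ILMN_2642681 read 9.72, 9.97 and 9.78 in KO and 9.97, 10.19 and 10.10 in WT spermatocytes, nominally lower in KO, by -0.26 (95% interval -0.61 to 0.08, limma adjusted p = 0.880). The interval bounds over all members reached from -1.91 to 1.45, and the widest belonged to the other Atf4 probe, so a change of that size was not detectable there. On the mixed arrays alone, which are not independent samples, 3 probes were called in spermatocytes, all lower in KO. They were both Ddit3 probes (-1.06, adjusted p = 2.52e-04, and -1.01, adjusted p = 3.89e-04) and Atf4 ILMN_2642681 (-0.43, adjusted p = 0.0402).

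Whether the KO against WT difference itself differed between the stages was tested in the same model. Among the 10 member probes this called 1, Atf4 ILMN_2642681, against 1.52% of all probes. That difference was 1.07 (SE 0.22, 95% interval 0.59 to 1.56, limma adjusted p = 0.0342). With the fractionation as a block its adjusted p was 0.0970, and with cyclic loess in place of quantile normalization the value was 0.97 (adjusted p = 0.0815). It also missed the threshold without any 1 of the 3 KO round spermatid arrays, replicate 2 or 3 of WT round spermatids, any 1 of the 3 KO spermatocyte arrays or replicate 2 of WT spermatocytes (adjusted p of 0.0503 to 0.126). For Xbp1 the difference between stages was 0.81 (SE 0.26) and did not pass (adjusted p = 0.163), although it did with array weights (0.98, adjusted p = 0.0236) and on the mixed arrays (0.85, adjusted p = 0.0288). Hsp90b1 gave 0.58 (adjusted p = 0.405).

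Between the stages in WT, most members were lower in round spermatids than in spermatocytes, and Dnajb9 was higher. Of the 10 probes, 6 were called lower and 2 higher, while of all probes 32.5% were called lower and 27.6% higher. The comparisons of the stages in WT and in KO each share arrays with the comparisons above, and their values are given side by side.

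Atf4 ILMN_2642681 fell most in WT, from 9.97, 10.19 and 10.10 in spermatocytes to 8.36, 8.12 and 8.34 in round spermatids. The difference was -1.81 (SE 0.16), a 3.52-fold lower signal (limma adjusted p = 4.53e-06). In KO the same probe fell by 0.74 (SE 0.16, adjusted p = 0.00221). Its levels, in descending order, were 10.09 ± 0.11 (SD, n = 3) in WT spermatocytes, 9.82 ± 0.13 in KO spermatocytes, 9.08 ± 0.12 in KO and 8.27 ± 0.14 in WT round spermatids. The 2 spermatocyte groups overlapped and the other neighbours lay apart.

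Herpud1 fell in both genotypes by both probes. ILMN_2790241 read 12.04, 12.12 and 11.75 in WT and 12.20, 11.85 and 11.94 in KO spermatocytes, above every round spermatid array, and the differences were -1.69 in WT (limma adjusted p = 7.79e-06) and -1.54 in KO (adjusted p = 3.53e-05). ILMN_2790246 read 11.11, 11.11 and 11.07 in WT and 11.20, 11.10 and 11.09 in KO spermatocytes, with differences of -1.50 (adjusted p = 9.51e-06) and -1.27 (adjusted p = 6.87e-05). No array of 1 stage reached the other stage on either probe.

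Xbp1 fell by 1.27 (SE 0.18, 2.41-fold) between the stages in WT (limma adjusted p = 8.95e-05). In KO its difference was -0.46 (SE 0.18, 95% interval -0.85 to -0.07), which just missed the threshold (adjusted p = 0.0505) although the arrays lay apart, and it passed under 6 alternatives (adjusted p of 0.0225 to 0.0497). Its group means were 10.07 ± 0.21 (SD, n = 3) in KO and 9.95 ± 0.19 in WT spermatocytes, 9.61 ± 0.16 in KO and 8.68 ± 0.17 in WT round spermatids. KO round spermatids overlapped neither WT round spermatids nor KO spermatocytes, but their highest array lay above the lowest of WT spermatocytes.

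Hsp90b1 fell by 0.80 in WT (SE 0.21, limma adjusted p = 0.00494), from 12.10, 11.85 and 11.57 in spermatocytes. In KO spermatocytes it read 11.69, 11.73 and 12.14, and the difference of -0.22 in KO did not pass (adjusted p = 0.394). The change of this gap with genotype is the difference between stages of 0.58 given above, which did not pass. Ddit3 ILMN_2652909 read 11.21, 11.09 and 10.84 in WT and 11.04, 11.16 and 10.62 in KO spermatocytes. It fell by 0.53 in WT (SE 0.20, adjusted p = 0.0374) and by 0.83 in KO (SE 0.20, adjusted p = 0.00435). The WT call was lost with cyclic loess (-0.26, adjusted p = 0.237), with the fractionation as a block (adjusted p = 0.0517), on the mixed arrays (-0.33, adjusted p = 0.0860) and without replicate 3 of KO, 1 or 3 of WT round spermatids or 1 or 2 of WT spermatocytes (adjusted p of 0.0508 to 0.120).

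Ddit3 ILMN_2927373 read 9.58, 9.33 and 9.06 in WT and 9.21, 9.39 and 8.97 in KO spermatocytes. The KO round spermatid arrays lay below all spermatocyte arrays, whereas the WT round spermatid arrays overlapped those of WT spermatocytes. Neither stage difference passed (-0.26 in WT, limma adjusted p = 0.290, and -0.35 in KO, adjusted p = 0.168). Nor did those of Atf4 ILMN_1223734, which read 8.23, 7.29 and 7.08 in WT spermatocytes (0.06 in WT, adjusted p = 0.950, and -0.46 in KO, adjusted p = 0.644).

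Dnajb9 was the member called higher in round spermatids of both genotypes. ILMN_2829636 read 8.99, 8.74 and 8.83 in WT and 8.59, 8.78 and 9.03 in KO spermatocytes, below every round spermatid array, with differences of 0.75 in WT (SE 0.18, limma adjusted p = 0.00348) and 1.05 in KO (adjusted p = 6.61e-04). ILMN_2510875 read 5.45, 5.40 and 5.63 in WT and 4.88, 5.87 and 5.76 in KO spermatocytes, where it was detected on 1 and 2 of 3 arrays, and the differences were 1.07 (SE 0.27, adjusted p = 0.00420) and 1.17 (adjusted p = 0.00345). On the mixed arrays the sign turned for both probes in both genotypes, so the direction of Dnajb9 between the stages rests on the direct arrays.

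In KO, 4 of the 10 probes were called lower and 2 higher in round spermatids, against 24.8% and 25.4% of all probes. The median of all probes was -0.14 in the WT and -0.02 in the KO comparison, and in WT it was 0.07 with cyclic loess, which turned the balance of all calls from 4806 higher and 5654 lower to 5724 higher and 4397 lower. Relative to the WT median of -0.14, Atf4 ILMN_2642681 differed by -1.67, Herpud1 by -1.55 and -1.36, Xbp1 by -1.12, Hsp90b1 by -0.65, Ddit3 ILMN_2652909 by -0.38 and Dnajb9 by 1.22 and 0.89. The marker genes of macrophages, Sertoli cells, erythroid cells and Leydig cells that differed with stage stand beside these values, and their part in them was not tested.

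**Figure D3:**
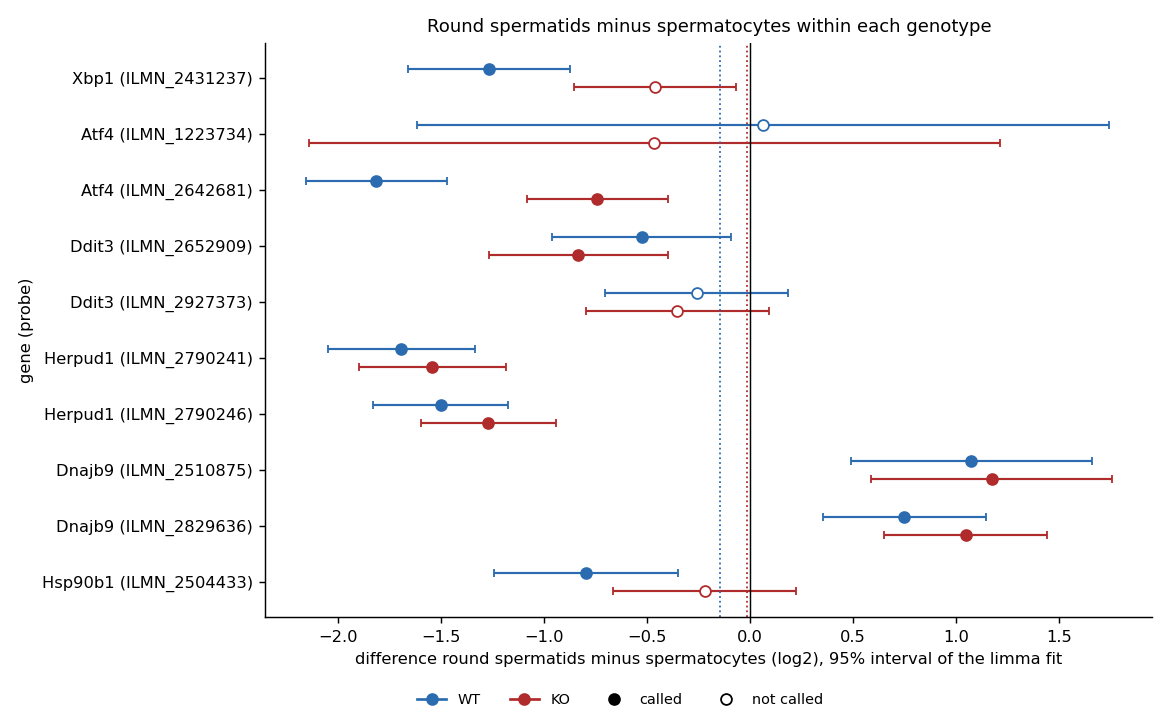
Difference round spermatids minus spermatocytes (log2) of each tested probe in WT (blue) and KO (red), with the 95% interval of the limma fit. Filled dots were called and open dots were not; dotted lines are the medians of all probes. Herpud1 lies between -1.69 and -1.27 in both genotypes, Dnajb9 between 0.75 and 1.17, and Xbp1 and Atf4 ILMN_2642681 lie nearer to 0 in KO (-0.46 and -0.74) than in WT (-1.27 and -1.81).

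Beyond the 10 members, 4 lists of pathway genes were read: other sensors and regulators, the integrated stress response, chaperones and folding enzymes of the endoplasmic reticulum, and degradation from it. They hold 76 genes. The array carries 73 of these, and 56 were tested, 1 probe per gene. In round spermatids 7 were called higher and 2 lower in KO, 16.1% in all beside 13.5% of all probes (6.19% higher and 7.32% lower). In the fit that kept 1 probe per named gene, 9 of the 56 were called higher and 2 lower. That fit called 875 higher and 1015 lower among its 12705 probes. The median difference of the 56 in the main fit was 0.26 beside 0.12 for all probes, and 73.2% of them lay above 0 beside 59.8% of all probes. The medians of the 4 lists, in the order above, were 0.40, 0.17, 0.43 and 0.13.

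Among sensors and regulators, Atf6b, a paralogue of Atf6 (0.77, SE 0.20, limma adjusted p = 0.0252), and Tmbim6, an inhibitor of cell death in the membrane of the endoplasmic reticulum (0.73, SE 0.20, adjusted p = 0.0275), were higher in KO. In the integrated stress response it was Ppp1r15a (GADD34), which directs the dephosphorylation of eIF2α (0.76, adjusted p = 0.0229), although it was detected on 1 of 3 WT round spermatid arrays. Among chaperones it was P4hb, a protein disulfide isomerase (0.94, SE 0.24, adjusted p = 0.0224). Of the degradation genes, the ubiquitin ligase Syvn1 (0.84, adjusted p = 0.0428), Edem2, which acts on misfolded glycoproteins (0.86, adjusted p = 0.00363), and the ATPase Vcp (0.83, adjusted p = 0.00594) were higher. The ubiquitin-conjugating enzyme Ube2g2 (-1.70, SE 0.25, adjusted p = 6.70e-04) and Herpud2, a paralogue of Herpud1 (-1.02, SE 0.28, adjusted p = 0.0294), were lower.

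All 4 tested probes of Herpud2 were lower, at -1.19 to -1.02, and 3 of the 4 of Edem2 were called, the other reading 0.49 (limma adjusted p = 0.228). The count depended on single arrays: it was 3 higher and 1 lower without replicate 1 or 2 of KO or replicate 3 of WT round spermatids, and 2 higher and 1 lower without replicate 3 of KO or replicate 2 of WT. Without replicate 1 of WT round spermatids it rose to 10 higher and 2 lower. With cyclic loess it was 4 higher and 2 lower, with array weights 14 and 2, and on the mixed arrays 18 and 4.

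**Figure D4:**
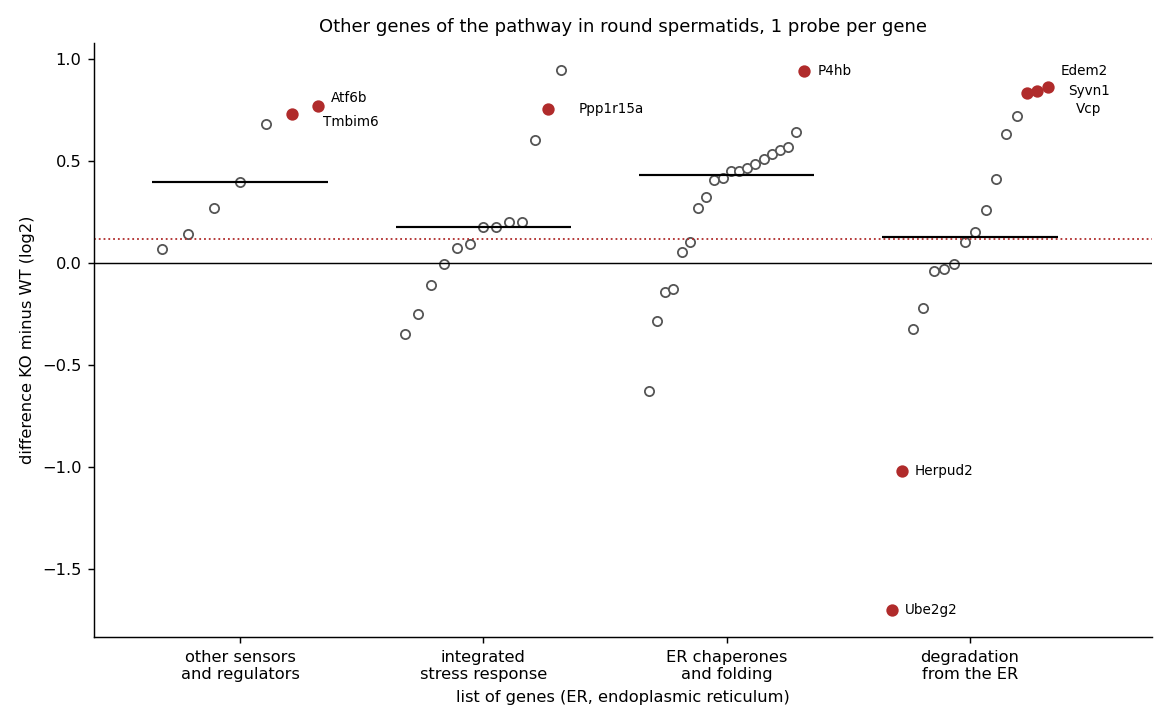
Difference KO minus WT in round spermatids (log2) of the 56 tested genes of the 4 pathway lists, 1 dot per gene, ordered by value within each list. Filled red dots were called and are named, black lines are list medians and the dotted line is the median of all probes (0.12); Ube2g2 and Herpud2 are the called genes below 0.

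In spermatocytes 0 of the 56 genes were called between KO and WT by limma, 0 had an unadjusted p under 0.05, and the differences ran from -0.42 to 0.49, with 11 called higher and 11 lower on the mixed arrays alone. For the difference between stages 0 were called and 10 had an unadjusted p under 0.05. The lowest limma adjusted p was that of Ube2g2 (-1.53, adjusted p = 0.0543), and Herpud2 missed the threshold as well (-1.43, adjusted p = 0.107). This count was 4 higher and 2 lower with array weights and 13 and 2 on the mixed arrays.

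Between the stages in WT, 10 of the 56 were called higher and 26 lower in round spermatids, 64.3% in all beside 60.1% of all probes, with a median difference of -0.57 beside -0.14. Sensors and regulators had 1 higher, Creb3l4, a membrane-bound transcription factor (1.84), and 4 lower, led by Atf6b (-1.64). The integrated stress response had 3 higher, led by Chac1, an enzyme that degrades glutathione (2.20), and 2 lower, led by the haem-regulated eIF2α kinase Eif2ak1 (-1.09). Chaperones had 3 higher, led by the testis chaperone Calr3 (1.35), and 11 lower, led by Dnajc3, an inhibitor of PERK and cofactor of Hspa5 (-3.02). Degradation had 3 higher, led by Ube2g2 (2.67), and 9 lower, led by Syvn1 (-2.62).

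In KO, 12 of the 56 were called higher and 19 lower, 55.4% in all beside 50.3% of all probes, with a median of -0.25 beside -0.02. Creb3l4 (2.18), Chac1 (2.04), the testis disulfide isomerase homologue Pdilt (1.27) and Herpud2 (1.22) were the highest called genes of their lists. Atf6b (-1.02), Eif2ak1 (-1.03), Dnajc3 (-2.18) and Syvn1 (-1.86) were again the lowest. With cyclic loess the WT counts were 15 higher and 23 lower.

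The named genes whose signal most resembled that of each member were sought by Pearson's r over the 12 direct arrays, among 9502 genes, as a description of arrays that share groups and stages. For Atf4 (ILMN_2642681) they were Eif3i and Csnk2a2 (both 0.992), and for Xbp1 Cdc42 (0.976) and Atp1b3 (0.969). Herpud1 was nearest to Preb (0.992) and Lpxn (0.989), Hsp90b1 to Sf3a1 (0.977) and Ube2o (0.974), Dnajb9 to Ndufaf2 (0.978) and Tfb1m (0.977), and Ddit3 to Cdsn (0.971) and Hacd1 (0.968).

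On mixed arrays several members departed from an equal mixture of the direct arrays named as parts. Dnajb9 lay 1.00 to 1.70 above it on the 6 mixed spermatocyte arrays, on both probes. Its probe ILMN_2829636 read 10.38, 10.43 and 10.36 on the mixed arrays of KO and 10.36, 9.93 and 10.04 on those of WT spermatocytes, all above every direct spermatocyte array. Ddit3 ILMN_2652909 read 9.61, 9.71 and 9.91 on mixed KO spermatocyte arrays, 0.94 to 1.49 below the mixture. Hsp90b1 lay 0.52 to 0.88 above it there. Atf4 ILMN_1223734 departed by -1.66 to 1.14 in KO round spermatids. The cause of these departures was not tested.

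**Figure D5:**
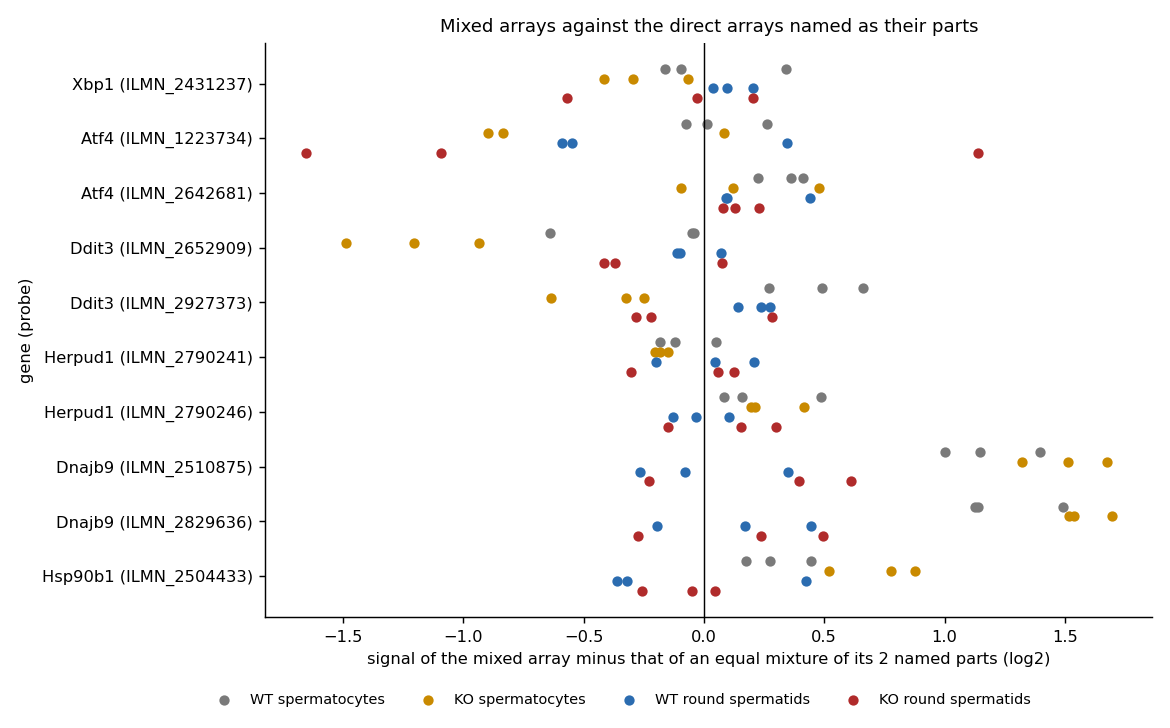
Signal of each mixed array minus that of an equal mixture of its 2 named parts (log2), 1 dot per array, by probe and group. Dnajb9 stands 1.00 to 1.70 above 0 on all mixed spermatocyte arrays, and Ddit3 ILMN_2652909 stands below 0 in KO spermatocytes.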

How the data were processed

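Total RNA of 24 samples was read on Illumina bead arrays, of which the 12 direct arrays entered the fit. Per the file headers, the deposited table gives the non-normalized intensity of each probe on each array, with a detection p-value. The authors also deposited processed intensity values. Scanner software and slides are not given in the sources used here. The platform annotation names 1 gene for 34885 of 45281 probes, several for 18 and none for 10378, and symbols were updated through RefSeq.

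Intensities of all 24 arrays were background-corrected from the detection p-values and quantile-normalized (neqc, offset 16, limma 3.58.1, R 4.3.3). Each probe was tested apart if its detection p was under 0.01 on 3 or more direct arrays (17401 probes, 38.4%). One limma model (lmFit, eBayes) with the 4 groups gave 5 comparisons, with Benjamini-Hochberg adjustment over all probes and a threshold of 0.05. The fit was tested on simulated data with independent arrays and no difference between stages, so that test does not cover the shared fractionations.

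The members and lists were chosen with earlier results of these data known. Every member probe was given, and of each pathway list (1 probe per gene, that of highest mean) the called genes between genotypes and, between stages, the highest and lowest called. For likeness, the 2 genes of highest Pearson's r were named. Within a genotype, arrays of the same number share a fractionation, per the labels, and their deviations correlated at 0.05 to 0.41 in KO and -0.19 to 0.24 in WT. KO and WT arrays share only a number. Alternatives were cyclic loess, array weights, the authors' processed values, other filters, only the groups compared, 1 probe per gene, replicate blocks, the mixed arrays alone and each direct array left out. Protein sequences were not used here.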

Additional observations from a re-analysis of the deposited data

Results flagged for a closer look

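The KO against WT difference of the Atf4 probe ILMN_2642681 was larger in round spermatids than in spermatocytes by 1.07 (log2, SE 0.22, limma adjusted p = 0.0342), by a test of the difference itself. It lost the call under 11 of 20 alternatives, as given with the result.

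A pair of probes that no direct array detected was detected on mixed arrays, which the comparisons do not use. Hspa5 ILMN_1255561 was detected on 4 mixed arrays of 12, where the signal reached 5.80, and Ern1 ILMN_2502860 on 4 mixed arrays, where it reached 5.76. For either probe 1 of these arrays was of KO round spermatids, 2 of KO and 1 of WT spermatocytes.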

How the results depend on the processing

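Of 1020 values of single probes under alternatives, 977 kept their side of the threshold, of which 48, not called under either setting, changed sign. Another 19 lost the call, 19 gained it and 5 changed the sign of a called difference. Those 5 were all on the mixed arrays alone: Dnajb9 ILMN_2510875 between the stages read -0.10 in WT and -0.10 in KO, Dnajb9 ILMN_2829636 -0.36 and -0.39, and Ddit3 ILMN_2652909 0.14 in KO. The mixed arrays alone called 5 member probes in KO against WT round spermatids (3 higher, 2 lower), 3 in spermatocytes and 2 for the difference between stages. For that difference, array weights called 2, cyclic loess 0 and the fractionation as a replicate block 0, against 1. With that block 7 probes were called between the stages in WT and 6 in KO, and it changed no call in KO. With the replicate number as a block, 2 were called in KO against WT round spermatids and 0 in spermatocytes. Leaving out 1 direct array at a time gave 2 to 3 calls in round spermatids, 0 in spermatocytes, 0 to 1 for the difference between stages, 7 to 8 between the stages in WT and 6 to 7 in KO. Over all probes, calls in round spermatids numbered 2350, against 4660 with array weights, 5272 on the mixed arrays and 1218 at the fewest with 1 array left out. In spermatocytes they numbered 140, against 62 on the authors' values, 93 without a filter, 57 with only the groups compared, 8093 on the mixed arrays and 78 without replicate 3 of KO. For the difference between stages they numbered 264, against 444 on the authors' values, 1494 with array weights, 4131 on the mixed arrays and 121 to 664 with 1 array left out. Cyclic loess turned the split in round spermatids from 1077 higher and 1273 lower to 484 and 1572, with a median of all probes of -0.02. The 3 direct arrays a group limit the precision. The sensors could not be compared because none of their probes was detected on any direct array.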
